A study of Homo sapiens with 9 samples.

Results

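Prostaglandins are lipid mediators made from arachidonic acid. The phospholipase PLA2G4A frees arachidonic acid from membranes, the cyclooxygenases PTGS1 and PTGS2 convert it to prostaglandin H2, and the synthases PTGES, PTGES2 and PTGES3 turn that into prostaglandin E2. Cells sense prostaglandin E2 through receptors such as EP2 (PTGER2) and EP4 (PTGER4), and they inactivate it through the dehydrogenase HPGD and then the reductase PTGR1. In skin, keratinocytes are a known source of prostaglandin E2, which acts in inflammation, wound repair and proliferation. These 10 genes were selected by name as the prostaglandin synthesis and receptor genes, with earlier results of these data known. They were taken out of 16199 genes detected in at least 1 library, and all 10 were listed in every library.

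The cells were HaCaT, an immortalized human keratinocyte line labelled as wild type, so the replicates are cultures of 1 line. After reaching confluence, they were kept in serum-free medium alone (untreated), or in that medium with EGF (10 nM) or bleogen pB1 (1 µM) added over 24 h, with 3 replicates in each group. EGF is the epidermal growth factor, and bleogen pB1 is a cystine-knot peptide of the cactus Pereskia bleo that also acts on the EGF receptor. The design asks how the transcriptome responds to each agonist, and the doses of the 2 agonists differ. Nothing in the labels says that the replicates were separate experiments, so the p-values measure the spread between these cultures, which may be technical.

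Each library held between 20288417 and 21320994 expected counts, and expression is given as CPM (counts scaled to library size, with TMM factors) within a gene and as FPKM (corrected for transcript length) between genes. On the first principal component, which held 83.8% of the variance of the 500 most variable genes, bleogen pB1 replicate 1 (-22.4) lay within the range of the untreated libraries (-24.5 to -20.2), whereas the other bleogen pB1 libraries lay above it. The 7 keratinocyte markers, KRT5 and KRT14 among them, summed to between 10400 and 11500 CPM in untreated, 7470 and 8020 in EGF-treated and 10200 and 12000 in bleogen pB1-treated libraries. KRT5 was the largest single part of that sum in every library. With EGF the list was divided, with 4 genes downregulated (KRT5 by a log2FC of -1.12, KRT1, CDH1 and DSP) and 3 upregulated (KRT14 by 0.88, TP63 and KRT10). Markers of other cell types were low: the fibroblast list of 7 genes summed to between 7.62 and 9.31 CPM in untreated, 1.3 and 2.0 in EGF-treated and 6.08 and 9.17 in bleogen pB1-treated libraries, with COL1A2 and LUM at 0 in the EGF-treated ones. The endothelial list of 5 genes summed to between 3.42 and 4.78, 0.306 and 0.504, and 1.16 and 1.91 CPM in the same order of groups, with KDR and TEK at 0 in the EGF-treated libraries. The leukocyte list of 6 genes, most of it CD68, summed to between 12.3 and 14.0, 20.3 and 22.2, and 12 and 12.5 CPM, with MPO at 0 in all groups. The melanocyte list of 4 genes stayed at or under 1.58 CPM, with TYR at 0. The part of these lists in the results was not tested. Of 7 genes known to respond to EGF, 5 were upregulated in the EGF-treated cells (edgeR, with the limits given below), HBEGF by a log2FC of 4.87. Over all genes tested 15.1% were upregulated. SPRY2 (log2FC 0.21) and EGR1 (-0.20) were not called with EGF. With bleogen pB1 0 of the 7 were called, where 1.48% of all genes were called, and their log2FC lay between -0.28 and 0.57. The lowest was DUSP6 (edgeR adjusted p = 0.035, under the fold limit).

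The promoters of both cyclooxygenases and of HPGD are shown first, because these 3 genes had the largest differences between groups among the 10. Each sequence is the 150 bases before an annotated start site, read on the strand of the gene from RefSeq (GRCh38), and capitals mark the matches to 5 short motifs.
PTGS1, first start site, chr9:122370383-122370532, plus strand: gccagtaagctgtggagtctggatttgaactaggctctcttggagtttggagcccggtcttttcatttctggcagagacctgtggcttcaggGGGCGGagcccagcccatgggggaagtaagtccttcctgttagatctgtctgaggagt
PTGS1, other start site, chr9:122375152-122375301, plus strand: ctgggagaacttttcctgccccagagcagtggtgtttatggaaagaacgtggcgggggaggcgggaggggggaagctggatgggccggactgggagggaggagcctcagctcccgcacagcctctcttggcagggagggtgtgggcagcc
PTGS2, chr1:186680424-186680573, minus strand: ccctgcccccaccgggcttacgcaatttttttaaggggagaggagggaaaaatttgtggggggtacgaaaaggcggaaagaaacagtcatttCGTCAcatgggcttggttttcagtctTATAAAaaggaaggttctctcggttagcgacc
HPGD, first start site, chr4:174522489-174522638, minus strand: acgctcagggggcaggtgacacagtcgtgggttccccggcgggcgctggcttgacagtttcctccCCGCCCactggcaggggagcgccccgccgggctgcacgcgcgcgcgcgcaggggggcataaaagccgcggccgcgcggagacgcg
HPGD, other start site, chr4:174522894-174523043, minus strand: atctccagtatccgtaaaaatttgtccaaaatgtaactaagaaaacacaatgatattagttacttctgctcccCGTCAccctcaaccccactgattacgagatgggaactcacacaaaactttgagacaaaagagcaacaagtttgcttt

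The motifs were searched on both strands as a TATA box (TATAAA), an AP-1 site (TGANTCA), a cyclic AMP response half-site (CGTCA), a GC box (GGGCGG) and an E-box (CACGTG). PTGS2 held a TATA box from 32 to 27 bases before the start site and a CGTCA from 58 to 54 bases before it. The TATA box was in 1 of the 14 start sites of the 10 genes and in 6.71% of 35116 promoters of the same length. The first start site of PTGS1 held 1 GC box, on the plus strand, from 58 to 53 bases before it, and the other held none of the 5 motifs. At HPGD the first start site had a GC box read from the opposite strand (CCGCCC) and the other a CGTCA. Over the 14 start sites, 8 held a GC box and 4 a CGTCA, which were in 36.8% and 15.4% of all promoters. The AP-1 site was in 0 of the 14 and in 4.17% of all promoters, and the E-box, in 4.57% of all, was in 1 (PTGES2). A match describes only these letters within these windows.

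In untreated cells, the FPKM of the 10 genes spanned 719-fold. PTGES3, which encodes the cochaperone p23 that also has prostaglandin E synthase activity, led with 249 ± 4.36 FPKM (SD, n = 3). PTGR1 (35.8 ± 1.14) and PTGES2 (34.4 ± 1.36) followed, and their ranges overlapped. HPGD (17.6 ± 1.03) and PTGES (15.1 ± 1.49) came next, again with overlapping ranges. The remaining 5 genes formed a low group in which no neighbours overlapped, with PTGS1 at 3.18 ± 0.520, PTGER4 at 2.12 ± 0.125, PTGER2 at 1.81 ± 0.211, PLA2G4A at 1.3 ± 0.175 and PTGS2 at 0.347 ± 0.0321 FPKM. The inactivating enzymes and the synthases were thus listed above both cyclooxygenases and both receptors.

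**Figure D1:**
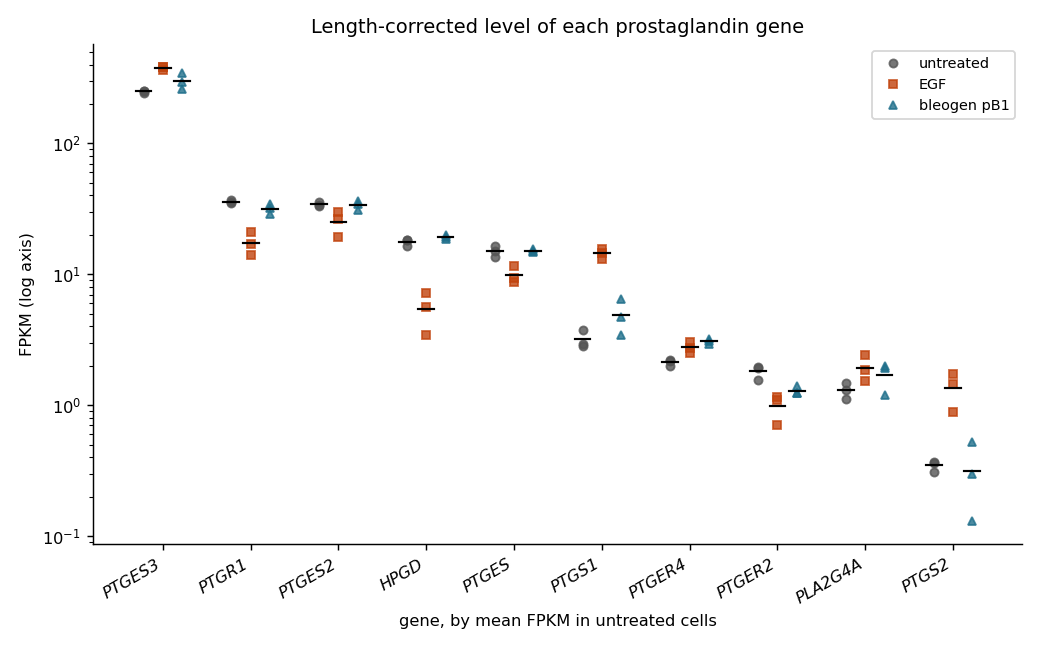
FPKM of the 10 genes on a log axis, ordered by the mean in untreated cells, with 1 point per library and a short bar for the mean of each group (n = 3). PTGES3 lies at the top in all groups, and PTGS1 and PTGS2 lie higher and HPGD lower in the EGF-treated libraries.

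The order of these levels was different in EGF-treated cells. PTGS1 reached 14.5 ± 1.36 FPKM, with a range that overlapped that of PTGR1 (17.4 ± 3.48) but lay above those of PTGES (9.94 ± 1.54) and HPGD (5.42 ± 1.87). PTGS2 reached 1.35 ± 0.433 FPKM, and the lowest levels were then those of PLA2G4A (1.93 ± 0.445), PTGS2 and PTGER2 (0.983 ± 0.247), neighbours whose ranges overlapped. In bleogen pB1-treated cells, PTGS1 (4.85 ± 1.53 FPKM) stayed below PTGES, and PTGS2 stayed last (0.317 ± 0.196 FPKM).

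A gene was called up- or downregulated when its edgeR quasi-likelihood adjusted p was at most 0.05 and its |log2FC| at least 0.5, with adjustment over 12394 genes. EGF against untreated gave 8 calls among the 10 genes, 4 up (PTGS1, PTGS2, PTGES3, PLA2G4A) and 4 down (HPGD, PTGR1, PTGER2, PTGES). Over all genes tested 36.9% were called in this comparison, 15.1% up and 21.8% down. The 10 genes were chosen with earlier results of these data known, so setting their calls beside these shares is a description, not a test. Without the fold limit all 10 genes passed, against 66.1% of all genes. The CPM ranges of the EGF-treated and untreated libraries did not overlap for any of the 10, which held for 70.4% of all genes. The median log2FC of the 10 genes was 0.05, and that of all genes was -0.01.
Bleogen pB1 against untreated gave 1 call among the 10 (PTGER4, up), where 1.48% of all genes were called, 0.218% up and 1.26% down. Without the fold limit it was still 1 of the 10, against 4.11% of all genes. The ranges did not overlap for 4 of the 10 (PTGES3, PTGER2, PTGER4, PTGR1), against 29.0% of all genes, and the median log2FC was 0.07 for the 10 and -0.00103 for all genes. Without bleogen pB1 replicate 1, 2 of the 10 were called (PTGER4 and PTGS1, both up), where 436 of 12526 genes were called, 100 of them up. Without any other single library of this comparison the count was 0 of the 10, where 102 to 133 of all genes were called. Both comparisons use the same untreated libraries, so they are not independent of each other.
The direct comparison of EGF with bleogen pB1 gave 5 calls, 2 higher with EGF (PTGS1, PTGS2) and 3 lower (HPGD, PTGR1, PTGES), where 28.8% of all genes were called, 10.8% higher and 18.0% lower. Without the fold limit 7 of the 10 passed, against 58.2% of all genes, and the ranges did not overlap for 8 of the 10, against 62.4%. The median log2FC was -0.19 for the 10 and -0.01 for all genes. In bulk RNA, fewer cells with a transcript and less transcript per cell cannot be told apart, and this holds for every value here.

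**Figure D2:**
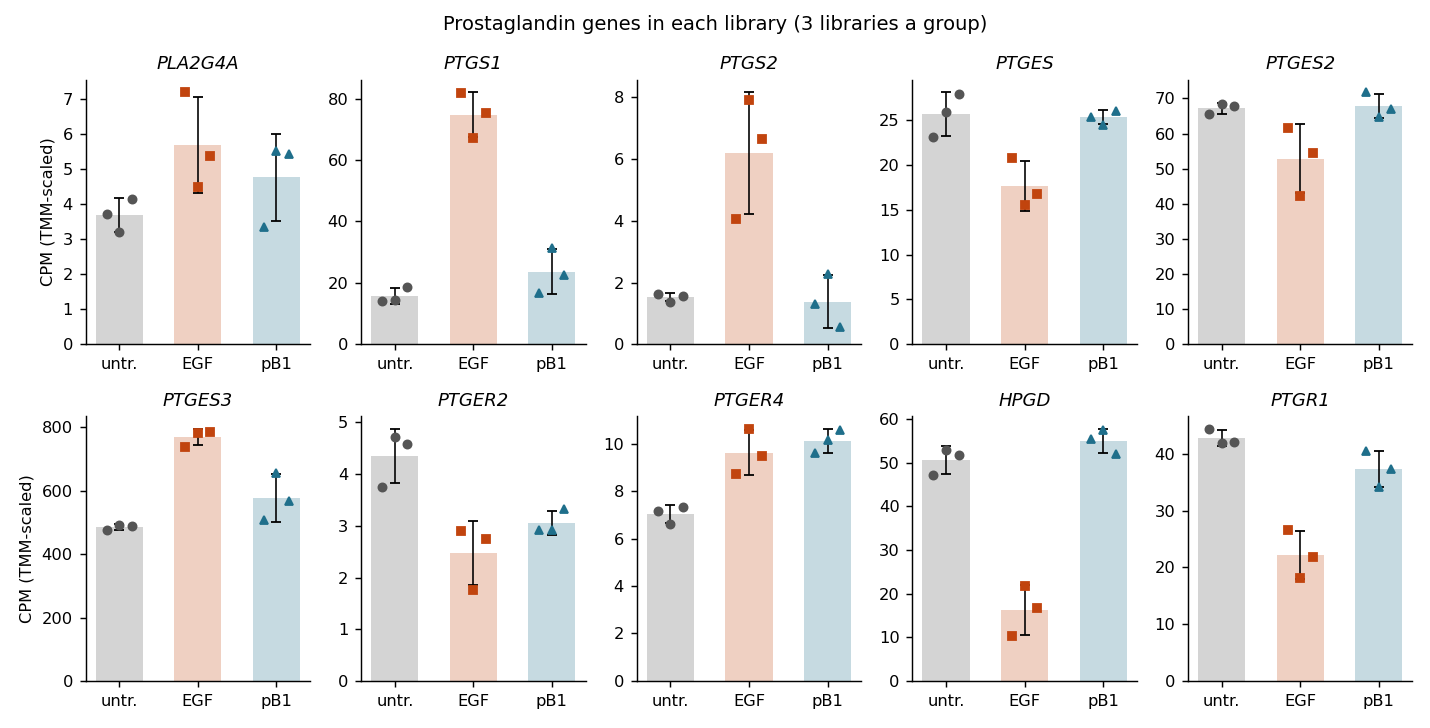
CPM of each of the 10 genes by group, each panel with its own axis from 0, where points are libraries (replicates 1, 2 and 3 from left to right), bars are means and error bars are SD (n = 3). The EGF-treated points lie apart from the untreated points in all 10 panels, and the bleogen pB1-treated points do so in 4 panels.

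Release of arachidonic acid was represented by PLA2G4A, the cytosolic phospholipase A2 that favours phospholipids carrying arachidonate. It lies on chromosome 1 (186828949 to 186988981, plus strand, GENCODE 44 on GRCh38), 148 kb from PTGS2. Its CPM in replicates 1, 2 and 3 was 3.71, 3.19 and 4.16 in untreated, 7.20, 4.48 and 5.39 in EGF-treated, and 3.34, 5.52 and 5.43 in bleogen pB1-treated cells. All EGF-treated libraries lay above the untreated ones, EGF replicate 2 only narrowly, and the bleogen pB1 libraries overlapped with both groups. PLA2G4A was upregulated with EGF by a log2FC of 0.62 ± 0.22 (SE, edgeR adjusted p = 0.026). The call was lost without EGF replicate 1 (log2FC 0.42, edgeR adjusted p = 0.11), without untreated replicate 1 (edgeR adjusted p = 0.0609) and without untreated replicate 2 (0.0958). With bleogen pB1 the log2FC was 0.37 (95% interval -0.12 to 0.86, edgeR adjusted p = 0.36), and the difference between the 2 agonists was 0.25 (-0.22 to 0.73). Without bleogen pB1 replicate 1 these were 0.57 and 0.05, and without EGF replicate 1 the difference was 0.05.

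Among the 10 genes, the cyclooxygenases had the largest rises with EGF. PTGS1 (COX-1, chromosome 9, 122370530 to 122395703, plus strand), whose product is often described as the constitutive isozyme, had 14.1, 14.4 and 18.6 CPM in untreated cells and 81.8, 67.1 and 75.2 CPM in EGF-treated cells. The bleogen pB1-treated libraries had 16.8, 31.4 and 22.7 CPM. Every EGF-treated library was far above every other library, and bleogen pB1 replicate 1 lay within the untreated range while the other two lay above it. PTGS1 was upregulated 4.76-fold with EGF (95% interval 3.63 to 6.24, log2FC 2.25 ± 0.18, edgeR adjusted p = 4.0e-07). It was called in every alternative fit of this comparison that kept the fold limit at 0.5, with a log2FC between 1.89 and 2.39.
With bleogen pB1, the log2FC of PTGS1 was 0.59 ± 0.19 and missed the threshold (edgeR adjusted p = 0.089). DESeq2 called it (adjusted p = 0.017), as did edgeR without the count filter (adjusted p = 0.047) and edgeR without bleogen pB1 replicate 1 (log2FC 0.79, adjusted p = 0.0079). The paper, which used DESeq2 with the same limits, names PTGS1 among the genes changed by both agonists. Without bleogen pB1 replicate 2, the library with the highest value, the log2FC was 0.33 (edgeR adjusted p = 0.38). The direct difference between EGF and bleogen pB1 was 1.66 ± 0.17 (edgeR adjusted p = 5.6e-06).

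PTGS2 (COX-2, chromosome 1, 186671791 to 186680922, minus strand), the isozyme best known for induction by growth factors and cytokines, was near the lower end of detection. Expected counts were 34, 28 and 33 in untreated, 81, 157 and 138 in EGF-treated, and 27, 49 and 12 in bleogen pB1-treated libraries. Before the TMM factors, 3 counts correspond to 0.141 to 0.148 CPM. The EGF-treated libraries were all higher than the others, and the bleogen pB1-treated libraries surrounded the untreated ones. PTGS2 was upregulated 4.04-fold with EGF (95% interval 2.38 to 6.85, log2FC 2.01 ± 0.35, edgeR adjusted p = 0.00025), from 1.53 to 6.20 CPM on average. The limma fits on log2 FPKM gave smaller values, down to 0.79, on a scale where the pseudocount of 1 exceeds the FPKM of PTGS2 in untreated cells. For bleogen pB1 the 95% interval of the log2FC ran from -1.04 to 0.73 (edgeR adjusted p = 0.86), and without bleogen pB1 replicate 2 or 3 the value was -0.73 or 0.22. The counts had an SD of 18.6 around a mean of 29.3 in bleogen pB1-treated cells and of 3.21 around 31.7 in untreated cells. EGF exceeded bleogen pB1 by 2.17 ± 0.36 (edgeR adjusted p = 0.00022).
PTGS2 overlaps the antisense transcript PACERR on the opposite strand, and whether the counting used the strand is not stated, so their reads may not be separated.

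**Figure D3:**
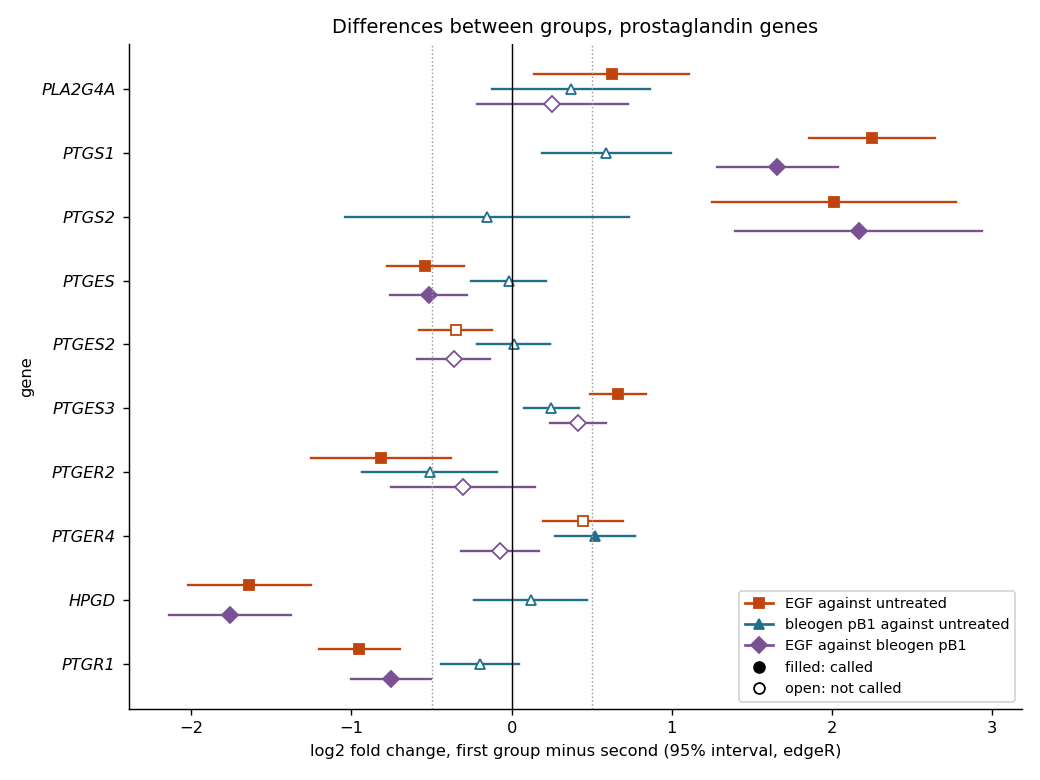
Log2 fold changes of the 10 genes (points) with 95% intervals (lines) from the edgeR fit for the 3 comparisons, where filled points were called, open points were not, and dotted lines mark the fold limit of 0.5 in each direction. PTGS1, PTGS2 and HPGD lie beyond 1 in both comparisons that contain EGF, and PTGER4 alone is filled for bleogen pB1 against untreated.

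Both cyclooxygenase transcripts rose with EGF, and the intervals of their fold changes overlapped. The share of PTGS2 in the summed FPKM of PTGS1 and PTGS2 was 11.5%, 9.63% and 8.70% in untreated, 5.30%, 11.7% and 9.0% in EGF-treated, and 8.09%, 7.45% and 2.70% in bleogen pB1-treated libraries. PTGS1 was thus the more abundant of the pair in all 9 libraries. The mean share was 9.94% ± 1.42 (SD, n = 3) in untreated and 8.67% ± 3.22 in EGF-treated cells, with overlapping ranges (exact two-sided permutation test, p = 0.7, adjusted over the 6 share comparisons 0.8). In bleogen pB1-treated cells it was 6.08% ± 2.94, below the untreated range in all 3 libraries (exact permutation p = 0.1, the smallest that 3 against 3 can give, adjusted 0.2). The difference of -3.86 percentage points was -2.17 without bleogen pB1 replicate 3, the library with 12 counts of PTGS2.

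The terminal synthases of prostaglandin E2 moved in different directions with EGF. PTGES (chromosome 9, 129738331 to 129753042, minus strand) encodes the microsomal synthase that is commonly coupled to COX-2. Its CPM was 23.1, 25.9 and 28.0 in untreated, 20.8, 15.5 and 16.8 in EGF-treated, and 25.4, 24.5 and 26.1 in bleogen pB1-treated cells. The EGF-treated libraries were lowest, and the bleogen pB1-treated ones fell inside the untreated range. PTGES was downregulated with EGF by a log2FC of -0.54 ± 0.11 (edgeR adjusted p = 0.00086), close to the fold limit. Leaving out EGF replicate 2, EGF replicate 3 or untreated replicate 3 brought the log2FC to -0.44, -0.50 and -0.47, which ended the call. Against bleogen pB1 the log2FC was -0.52 (edgeR adjusted p = 0.0015), and that call ended without EGF replicate 2 (-0.42), EGF replicate 3 (-0.47) or bleogen pB1 replicate 3 (-0.492).
PTGES2 (chromosome 9, 128120693 to 128128462, minus strand), the membrane-associated synthase, had 65.5, 68.4 and 67.9 CPM in untreated and 61.7, 42.3 and 54.5 CPM in EGF-treated cells. In bleogen pB1-treated cells it had 71.8, 64.8 and 67.0 CPM, around the untreated values. With EGF its log2FC was -0.35 ± 0.11 (edgeR adjusted p = 0.011), under the fold limit, and -0.20 without EGF replicate 2, the lowest library. For bleogen pB1 the 95% interval was -0.21 to 0.24.
PTGES3 (chromosome 12, 56663341 to 56688408, minus strand) had 476, 492 and 490 CPM in untreated, 740, 783 and 786 in EGF-treated, and 507, 658 and 567 in bleogen pB1-treated cells. Both treated groups lay above the untreated libraries, and the EGF-treated group lay above the bleogen pB1-treated one. PTGES3 was upregulated with EGF by a log2FC of 0.66 ± 0.08 (edgeR adjusted p = 1.2e-05). The log2FC with bleogen pB1 was 0.25 ± 0.08 and did not pass (edgeR adjusted p = 0.094). It was 0.33 without bleogen pB1 replicate 1 (edgeR adjusted p = 0.010, still under the fold limit) and 0.14 without bleogen pB1 replicate 2 (edgeR adjusted p = 0.35). EGF exceeded bleogen pB1 by 0.41 (edgeR adjusted p = 0.00072), also under the limit, and this difference was called without bleogen pB1 replicate 2 (0.52).

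At both receptors for prostaglandin E2, the direct comparison of EGF with bleogen pB1 gave no call. PTGER4 (EP4, chromosome 5, 40679915 to 40693735, plus strand) signals through cyclic AMP and phosphoinositide 3-kinase. Its CPM was 7.18, 6.63 and 7.36 in untreated, 8.75, 10.6 and 9.48 in EGF-treated, and 9.60, 10.2 and 10.6 in bleogen pB1-treated libraries. All 6 treated libraries were above all untreated ones, and the 2 treated groups overlapped. PTGER4 was upregulated with bleogen pB1 by a log2FC of 0.52 ± 0.12 (95% interval 0.27 to 0.77, edgeR adjusted p = 0.028), just past the fold limit. This call was kept without bleogen pB1 replicate 1 (0.56, edgeR adjusted p = 0.017) and lost on leaving out each other library, namely untreated replicate 1 (0.53, 0.12), untreated replicate 2 (0.48, 0.12), untreated replicate 3 (0.55, 0.066), bleogen pB1 replicate 2 (0.51, 0.0810) and bleogen pB1 replicate 3 (0.48, 0.13). With EGF the log2FC was 0.45 ± 0.12 (edgeR adjusted p = 0.0042), under the fold limit, and 0.51 without EGF replicate 1. The difference between the agonists was -0.07, with a 95% interval of -0.32 to 0.17 (edgeR adjusted p = 0.60), which leaves room for a difference of either sign. PTGER4 overlaps TTC33 on the opposite strand.
PTGER2 (EP2, chromosome 14, 52314305 to 52328598, plus strand), which also raises cyclic AMP, went the other way. It had 3.76, 4.72 and 4.59 CPM in untreated, 2.90, 1.76 and 2.74 in EGF-treated, and 2.91, 2.92 and 3.32 in bleogen pB1-treated cells. All treated libraries were below all untreated ones. PTGER2 was downregulated with EGF by a log2FC of -0.82 ± 0.20 (edgeR adjusted p = 0.0030). With bleogen pB1 the log2FC was -0.51 (95% interval -0.93 to -0.09), which did not pass the adjustment (edgeR adjusted p = 0.15). The EGF-treated libraries lay just below the bleogen pB1-treated ones, by a log2FC of -0.31 (95% interval -0.75 to 0.14, edgeR adjusted p = 0.22), which was -0.10 without EGF replicate 2.

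The relative level of the 2 receptors did not overlap between untreated and treated libraries. PTGER4 made up 57.9%, 50.4% and 53.6% of the summed FPKM of PTGER2 and PTGER4 in untreated, 68.5%, 81.4% and 71.3% in EGF-treated, and 70.3%, 71.4% and 69.6% in bleogen pB1-treated libraries. Every treated library was above every untreated one. This follows from the 2 genes, since PTGER4 was higher and PTGER2 lower in every treated library than in every untreated one. The share and its test against untreated therefore add no separate evidence. Mean shares were 54.0% ± 3.78, 73.7% ± 6.78 and 70.4% ± 0.918 (SD, n = 3), and each treated group against untreated gave an exact permutation p = 0.1, the smallest possible here (adjusted 0.2). EGF and bleogen pB1 had overlapping shares (exact permutation p = 0.8, adjusted 0.8). The other known prostaglandin E2 receptors, EP1 (PTGER1, 0 to 3 counts per library) and EP3 (PTGER3, 0 or 1 count), were at or under the floor of 3 counts in every library.

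**Figure D4:**
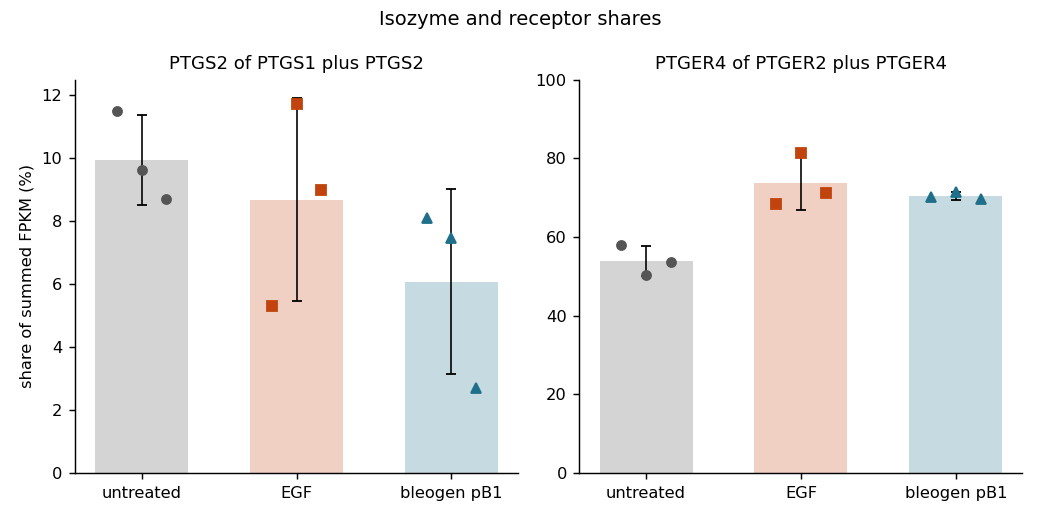
Share of PTGS2 in the summed FPKM of PTGS1 and PTGS2 (left) and share of PTGER4 in that of PTGER2 and PTGER4 (right), in percent, with points for libraries (replicates 1, 2 and 3 from left to right), bars for means and error bars for SD (n = 3). The receptor share lies between 50.4% and 57.9% in untreated libraries and between 68.5% and 81.4% in the treated ones, and the cyclooxygenase share stays under 12% throughout.

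Both inactivating enzymes were downregulated with EGF. HPGD (chromosome 4, 174490175 to 174523154, minus strand) encodes the dehydrogenase that oxidizes prostaglandin E2 and is held to be the first step of its breakdown. It had 47.1, 52.9 and 51.9 CPM in untreated, 10.3, 21.8 and 16.8 in EGF-treated, and 55.3, 57.5 and 52.1 in bleogen pB1-treated cells. The highest EGF-treated library was under all untreated libraries by a wide margin, and the bleogen pB1 libraries overlapped with the untreated ones at the upper end. HPGD was downregulated 3.11-fold with EGF (log2FC -1.64 ± 0.18, edgeR adjusted p = 4.7e-06), and it was called in every alternative fit with the fold limit at 0.5, with a log2FC between -1.89 and -1.39. The log2FC with bleogen pB1 was 0.12 (95% interval -0.23 to 0.47, edgeR adjusted p = 0.71). EGF and bleogen pB1 differed by -1.76 ± 0.18 (edgeR adjusted p = 3.9e-06).
PTGR1 (chromosome 9, 111549722 to 111599893, minus strand), a reductase that acts on the oxidized prostaglandins and also on leukotriene B4, had 44.3, 41.9 and 42.1 CPM in untreated, 26.6, 18.1 and 21.8 in EGF-treated, and 40.4, 34.2 and 37.3 in bleogen pB1-treated cells. The 3 groups did not overlap, in the order untreated, bleogen pB1, EGF. PTGR1 was downregulated with EGF by a log2FC of -0.95 ± 0.12 (edgeR adjusted p = 1.3e-05), and its log2FC with bleogen pB1 was -0.20 (95% interval -0.44 to 0.04, edgeR adjusted p = 0.32). The difference between EGF and bleogen pB1 was -0.75 ± 0.12 (edgeR adjusted p = 0.00013). Its average transcript length in the files, which follows the mix of transcripts assigned to the gene, was 1276 to 1282 bases in untreated and 1291 to 1307 bases in EGF-treated libraries, without overlap, and 1277 to 1294 bases in bleogen pB1-treated ones. For EGF against untreated the exact permutation p was 0.1, the smallest that 3 against 3 can give. The lengths of PTGES3 did not overlap between these groups either, with means 1.38 bases apart. The share of all genes without such overlap was not computed. HPGD and PTGR1 also overlap transcripts on the opposite strand, a long noncoding RNA for HPGD and ZNF483 and a long noncoding RNA for PTGR1. On their own strand, PTGS1 overlaps a long noncoding RNA and PTGES3 overlaps RN7SL809P, which counting by strand would not separate.

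The rest of the eicosanoid pathway was read from 5 lists with 60 genes, of which 31 passed the count filter. With EGF, 3 of the 31 were upregulated and 9 downregulated (edgeR), 12 in all and so near the 36.9% of all genes called, and their median log2FC was -0.31. With bleogen pB1, 1 of the 31 was called, upwards, where 1.48% of all genes were called and 0.218% were up. The median of the 31 was -0.00896. EGF against bleogen pB1 gave 4 higher and 7 lower, against 10.8% and 18.0% of all genes.
Among other enzymes of arachidonate release, 4 of 7 tested were downregulated with EGF and the other 3 were not called (edgeR), where 21.8% of all genes were downregulated. They were PLAAT4 (log2FC -2.15, edgeR adjusted p = 8.3e-08), which fell from 44.9, 51.3 and 39.9 CPM to 10.7, 9.62 and 10.3 CPM, and PLAAT3 (-1.12), PLA2G4B (-1.05) and PLA2G6 (-0.78), all phospholipases or acyltransferases. PLA2G4B shares sequence with a readthrough transcript, which makes its counts uncertain.
The 4 other prostanoid synthases that were tested, AKR1C3, AKR1B1, CBR1 and FAM213B, had log2FC between -0.02 and 0.17 with EGF and between -0.01 and 0.22 with bleogen pB1. The lowest adjusted p among them was 0.046 (CBR1 with EGF, edgeR), under the fold limit. The thromboxane receptor TBXA2R, the 1 tested of 7 other receptors, was not called (edgeR adjusted p = 0.45 with EGF).
Transport and inactivation held 2 rises and 3 falls among 9 genes with EGF, where 15.1% of all genes were called up and 21.8% down. SLCO4A1, an organic anion transporter that can carry prostaglandin E2, rose from 8.0, 8.40 and 9.74 CPM to 34.5, 32.3 and 33.7 CPM with EGF (log2FC 1.94, edgeR adjusted p = 9.7e-08), and it was the 1 gene of these lists called with bleogen pB1 (10.9, 16.4 and 14.1 CPM, log2FC 0.66, edgeR adjusted p = 0.020). That call was lost without untreated replicate 1 or 2 or bleogen pB1 replicate 2 or 3 (edgeR adjusted p = 0.0861 to 0.125). EGF exceeded bleogen pB1 at SLCO4A1 by 1.28. AKR1C1, which has near-identical relatives whose reads can be misassigned, rose by 1.86 with EGF, while its relative AKR1C2 had a log2FC of -0.08. The reductases PTGR2 (-0.75), CBR3 (-0.69) and ZADH2 (-0.56, named after its value was seen), the first and last of which act on the same oxidized prostaglandins as PTGR1, were downregulated with EGF (edgeR).
In the list of lipoxygenase-branch and related genes, 1 of 10 tested was upregulated with EGF and 2 were downregulated, against 15.1% and 21.8% of all genes. EPHX2, the soluble epoxide hydrolase, was counted in this list but is not an enzyme of that branch. It fell from 9.64, 10.2 and 9.60 CPM to 1.90, 1.01 and 1.88 CPM with EGF (log2FC -2.61, edgeR adjusted p = 5.1e-07). The other calls, ALOXE3 (2.53) and LTC4S (-2.07), were named after their values were seen and rest on a mean of 15.7 and 8.89 counts.

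**Figure D5:**
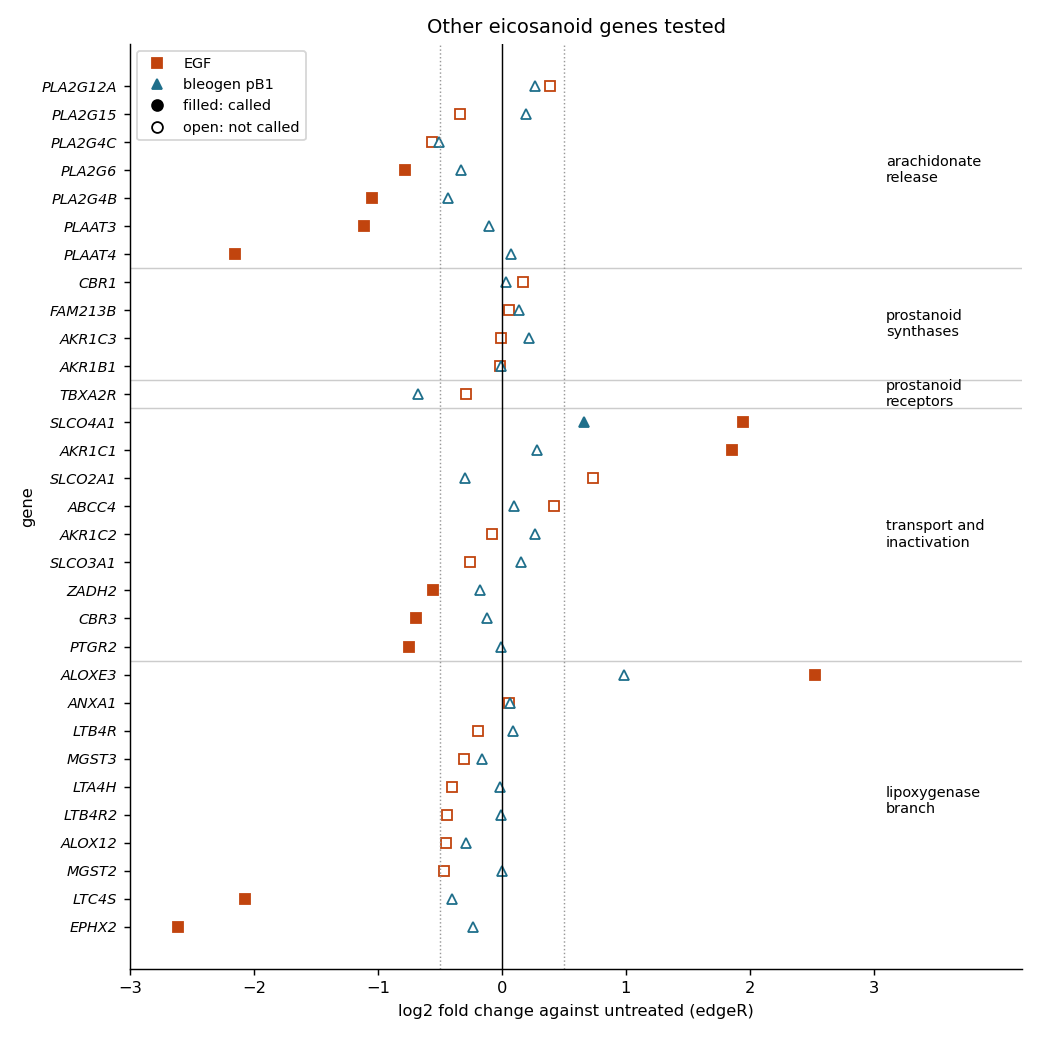
Log2 fold change against untreated (edgeR) of the 31 other eicosanoid genes that passed the count filter, by list, with squares for EGF and triangles for bleogen pB1, filled where called, and dotted lines at the fold limit of 0.5. With EGF 3 genes are filled on the right and 9 on the left, and SLCO4A1 is the filled triangle.

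For 4 of the 10 genes, the genes with the most similar profile were sought over the 9 libraries, by the root mean square difference of centred log2 CPM among 12393 genes. The nearest to PTGS1 was PTHLH, the parathyroid hormone-like hormone, with a difference of 0.10, followed by STEAP1 (0.18) and the hyaluronan synthase HAS3 (0.19), against a median of 1.01 over all genes. Nearest to HPGD were the collagenase MMP13 (0.14), ZSCAN31 (0.18) and VWA5A (0.19), against a median of 0.88. PTGER4 was followed by CHAF1A (0.10), CPT1A (0.10) and E2F1 (0.11), but its median was 0.32, so that a close match is common for a gene that moves little. PTGS2 had no such close neighbour, and the nearest were SOCS1 (0.41), IL2RG (0.42) and SH3TC1 (0.43), against a median of 1.12. The libraries of a group share their treatment, so these likenesses are a description.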

How the data were processed

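Total RNA of HaCaT cells was enriched for polyadenylated RNA and made into stranded (dUTP) libraries by BGI. The extraction kit is PureLink in the paper and RNeasy in the labels. The authors had the reads mapped to GRCh38.p12 through an online system; the counting tool and its use of strand are not given in the sources used here. For each gene the authors deposited an expected count, which is an estimate without depth scaling, an FPKM, which divides it by length and library size, and the average transcript length. A gene without an entry in a library was taken as 0.

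Groups came from the sample titles. Expected counts were rounded and tested with edgeR 4.0.16 (R 4.3.3): filterByExpr, TMM, glmQLFit and glmQLFTest, all 9 libraries in 1 fit, 3 contrasts and Benjamini-Hochberg adjustment over 12394 genes. SE was |log2FC| divided by the square root of F. Shares and transcript lengths were compared by exact two-sided permutation tests in Python 3.11.15. Depth was 20288417 to 21320994 counts per library, where 3 counts are 0.141 to 0.148 CPM before the TMM factors, a floor that covers counting error only. Alternatives were DESeq2 1.42.0, limma 3.58.1 on log2(FPKM + 1) or log2(FPKM + 0.1), other scaling, filters and fold limits, the replicate number as a block, and each library left out.

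The 10 genes, the wider lists and the markers were chosen with earlier results of these data known. Named genes were the 10, called genes of the wider lists with a mean of at least 50 counts (at most 4 per list, by largest |log2FC|), and the 3 nearest profiles of PTGS1, PTGS2, PTGER4 and HPGD. Any other gene, markers aside, was named after its values were seen. In the files PLAAT4 is RARRES3 and PLAAT3 is PLA2G16. Coordinates are 1-based from GENCODE 44 (GRCh38), promoters from RefSeq (GRCh38.p14).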

Additional observations from a re-analysis of the deposited data

How the results depend on the processing

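Among the 10 prostaglandin genes, the count of calls with EGF against untreated (8) ranged from 7 to 8 when 1 library was left out and was 3 at |log2FC| of at least 1 (PTGS1, PTGS2, HPGD). For EGF against bleogen pB1 (5) it ranged from 4 to 6 and was 3 at that limit. For bleogen pB1 against untreated (1) it ranged from 0 to 2, was 2 without the count filter and with DESeq2, and was 0 with limma on log2(FPKM + 1), with or without the FPKM filter, and at |log2FC| of at least 1. At |log2FC| of at least 1, 1892 of all 12394 genes were called with EGF, 1458 for EGF against bleogen pB1 and 31 with bleogen pB1. PTGS2 had no value in the fit with a mean FPKM of at least 1. PLA2G4A lost its EGF call with upper-quartile factors (adjusted p = 0.054) and with limma on log2(FPKM + 1) (log2FC 0.34). Upper-quartile factors moved the median log2FC of all genes with EGF from -0.01 to -0.12 and gave 1396 up of 4617 calls in place of 1875 of 4578.

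The 31 other eicosanoid genes had 22 calls with EGF and 19 for EGF against bleogen pB1 without the fold limit, in place of 12 and 11, where 66.1% and 58.2% of all genes passed, and 12 to 14 and 10 to 14 when 1 library was left out. With bleogen pB1 they had 0 calls at |log2FC| of at least 1, where 31 of all 12394 genes were called. They had 0 to 2 calls when 1 library was left out, where 102 to 436 of all genes were called.

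The replicate number as a block changed no call of the 10 genes (8, 1 and 5 calls). It gave 4560, 186 and 3550 calls over all genes in place of 4578, 183 and 3564. Deviations of same-numbered libraries correlated between -0.03 and 0.21, and those of differently numbered ones between -0.25 and 0.16. These ranges overlap and do not settle whether the numbers pair the cultures. The main fit did not pair them. The 183 calls over all genes for bleogen pB1 became 436 without bleogen pB1 replicate 1, 109 and 102 without bleogen pB1 replicates 2 and 3, and 102, 128 and 133 without untreated replicates 1, 2 and 3.

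For the log2FC of single genes, sign changes with the processing concerned bleogen pB1 against untreated, in genes that were not called. Differences in the shares, given last, changed sign in other comparisons. When 1 library was left out, the log2FC ranged from -0.73 to 0.22 for PTGS2, from -0.0899 to 0.0477 for PTGES, from -0.0285 to 0.0417 for PTGES2, from -0.0919 to 0.20 for PLAAT4, from -0.17 to 0.61 for AKR1C1 and from -0.10 to 0.13 for PTGR2. PTGES (-0.0193) was 0.00670 with limma on log2(FPKM + 1), with or without the filter, and 0.00734 on log2(FPKM + 0.1). PTGES2 (0.0129) was -0.0250 and -0.0257 in these fits and -0.00349 with upper-quartile factors, and PTGR2 (-0.0109) was 0.00469 and 0.00325 in the limma fits. The EGF minus untreated difference in the PTGS2 share ranged from -2.79 to 0.42 percentage points when 1 library was left out, the bleogen pB1 minus untreated difference from -4.86 to -2.17, and the EGF minus bleogen pB1 difference in the PTGER4 share from -0.56 to 5.89.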
